A study of Mus musculus with 12 samples.

Results

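Expression of 10 genes of the interleukin-1 (IL-1), tumour necrosis factor (TNF) and inflammasome systems was measured in mouse lung after ozone (O3), with and without Nfkb1. They were the ligands Il1a, Il1b and Tnf, the IL-1 receptor antagonist Il1rn, the receptors Il1r1, Il1r2, Tnfrsf1a and Tnfrsf1b, the inflammasome sensor Nlrp3 and the protease Casp1. Every probe set that the array annotation tied to exactly 1 of these 10 symbols was taken whatever its level, which gave 14 of the 45101 probe sets on the array. Il1rn had 3 of them, Il1r1 and Tnfrsf1b had 2 each, and each of the other 7 genes had 1.

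RNA came from the homogenised left lung of single male mice aged 6 to 8 weeks, with 1 mouse per array and 3 mice in each of 4 groups. Nfkb1KO-O3 and Nfkb1KO-Air mice carried a targeted mutation of Nfkb1 in every cell (Nfkb1-/-, strain B6;129P-Nfkb1tm1Bal/J), which removes the NF-κB subunit p50 and its precursor p105. WT-O3 and WT-Air mice were Nfkb1+/+ (strain B6129PF2/J). O3 groups breathed 0.3 ppm O3 without a break for 48 h, and air groups breathed filtered air in another chamber, so that O3 and chamber cannot be told apart. The comparisons ask how these genes depend on genotype in air and after O3, on O3 in each genotype, and whether the O3 change differs between genotypes. The genotypes came from different stocks, both of mixed B6 and 129 ancestry, so that genotype and stock cannot be told apart. Nfkb1 lies on chromosome 3, and none of the 10 genes does, which does not separate genotype from stock. The annotation tied no probe set to Nfkb1, so its transcript was not analysed here and could not serve as a check of the labels. In whole lung, fewer cells of a type and less RNA per cell cannot be told apart.

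IL-1α and IL-1β bind the same receptor, IL1R1, which signals through MyD88 and the IRAK kinases to NF-κB. The antagonist encoded by Il1rn occupies that receptor without signalling, and IL1R2 is a decoy that binds IL-1 without passing the signal on. IL-1β is made as an inactive precursor that caspase-1 cleaves once an inflammasome, for example one built on NLRP3, has assembled. TNF acts through TNFR1 (Tnfrsf1a), found on most cells, and TNFR2 (Tnfrsf1b), which is more restricted to leukocytes and endothelium. In the lung, alveolar macrophages are a known early source of these cytokines.

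The sequences just upstream of the transcription starts are shown for Il1rn, the member whose level moved most, for Il1b, the ligand that it opposes, and for Nlrp3, the only member with a match to the NF-κB consensus. They are the 250 bases before a start, 5′ to 3′ on the strand of the gene, from RefSeq on GRCm38.p6, where all 10 symbols were matched, with 14 windows. Il1rn has 3 listed starts on chromosome 2. One is 8511 bases upstream of the last, and the middle one lies 80 bases before the last, so its window overlaps the last window and is not shown. Which start the arrayed transcripts used was not tested. Capitals mark TGANTCA in the first line, GGGNNTTTCC in the second, TATAAA in the third and the NF-κB consensus in the fourth.
Il1rn, chr2:24336610-24336859, + strand: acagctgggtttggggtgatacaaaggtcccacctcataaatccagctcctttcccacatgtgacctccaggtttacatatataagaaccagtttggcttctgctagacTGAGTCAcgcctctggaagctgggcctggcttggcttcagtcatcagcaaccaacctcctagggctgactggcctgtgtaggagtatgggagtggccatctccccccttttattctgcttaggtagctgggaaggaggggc
Il1rn, chr2:24345121-24345370, + strand: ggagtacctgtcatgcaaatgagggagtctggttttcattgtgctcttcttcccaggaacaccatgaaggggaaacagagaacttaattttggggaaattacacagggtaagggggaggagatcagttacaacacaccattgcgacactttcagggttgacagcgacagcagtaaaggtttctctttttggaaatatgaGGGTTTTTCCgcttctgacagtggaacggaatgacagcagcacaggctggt
Il1b, chr2:129371140-129371389, - strand: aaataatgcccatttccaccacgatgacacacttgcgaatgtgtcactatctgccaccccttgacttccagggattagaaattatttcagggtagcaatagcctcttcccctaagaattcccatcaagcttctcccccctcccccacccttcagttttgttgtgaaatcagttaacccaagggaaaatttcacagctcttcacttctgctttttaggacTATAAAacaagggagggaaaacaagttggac
Nlrp3, chr11:59541319-59541568, + strand: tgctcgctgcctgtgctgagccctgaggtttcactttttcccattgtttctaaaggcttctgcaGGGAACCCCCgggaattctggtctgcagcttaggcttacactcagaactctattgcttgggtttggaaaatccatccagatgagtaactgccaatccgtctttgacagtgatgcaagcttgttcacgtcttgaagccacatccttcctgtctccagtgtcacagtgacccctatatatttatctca

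The TGANTCA match of Il1rn, the AP-1 motif, starts 141 bases before the upstream start. The GGGNNTTTCC match, a relaxed NF-κB form, starts 51 bases before the downstream start. A TATAAA element starts 31 bases before the start of Il1b, 32 before that of Il1a and 29 before that of Tnf, so all 3 cytokine ligands carry one and none of the other 7 genes does. In all, 14 patterns were searched on both strands after the values were known, 8 of them NF-κB forms, and the choice of what to show was made after the matches were seen. Of 32851 promoter windows of the same length, 12.4% held TATAAA, 6.75% held TGANTCA (Il1rn and Il1a) and 1.41% held GGGNNTTTCC (Il1rn). The NF-κB consensus was in 5% of windows (Nlrp3), and with its middle pyrimidines free in 13.8% (Il1r1, Nlrp3 and Tnf). GGGNNNNNCC, which overlaps these forms, was in 45.8% (7 members). A second NF-κB consensus (0.186%), GGGANTTTCC (0.356%), GGAATTTCC (0.286%) and GGGANNTTCC (1.21%) were in no member window. TTNNGCAA was in 9.56% of windows (Il1r1), TTCNNNGAA in 7.02% (Il1r2, Tnfrsf1a and Tnfrsf1b), TTCCNGGAA in 0.913% (Tnfrsf1b) and GAGGAA in 23.3% (5 members). A match describes letters only, and no measurement of binding was made.

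Array values are normalised log2 signals, so that a difference of 1 is a doubling. They were tested in 1 linear model (limma) over 17569 genes, with p-values adjusted over all of these genes and genes called at an adjusted p under 0.05. Of the 14 probe sets, 12 rose above the lower limit used here in at least 1 array, and 9 of the 10 genes were tested. That lower limit was a log2 signal of 4.37, the 20th percentile, which is a filter and not a limit of detection. Where a gene had several probe sets, the brightest stood for it. Across the 12 arrays the median deposited signal was 99.14 to 121.16 in 11 arrays and 180.14 in Nfkb1KO-Air replicate 1, whose rank correlation with the others was 0.915 to 0.93 (0.947 to 0.969 among the others). Skeletal muscle markers (10 genes) summed to 547.8 to 9638 in Nfkb1KO-O3, 1232 to 1902 in Nfkb1KO-Air, 526.6 to 1040 in WT-O3 and 1275 to 38860 in WT-Air, where replicate 3 was the highest of all. Calls of the 10 genes are therefore also given without Nfkb1KO-Air replicate 1 and WT-Air replicate 3. Markers of lung cells (4 of alveolar type 2, 3 of alveolar type 1, 2 of club and 3 of endothelial cells) were present in every group, none of them at or below the lower limit throughout a group.

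After 48 h of O3, Il1rn was the only member called within a genotype, and it was called in both. Its level about doubled, to 8.01 ± 0.13 in Nfkb1KO-O3 against 6.93 ± 0.17 in Nfkb1KO-Air, and to 8.04 ± 0.26 in WT-O3 against 7.01 ± 0.35 in WT-Air (mean log2 ± SD, n = 3). The ligand it opposes, Il1b, differed by 0.23 ± 0.19 with O3 in Nfkb1KO and by 0.01 ± 0.19 in WT (log2, SE) and was not called in either. No genotype difference of any member passed the threshold over all genes. The largest of them after O3 were 0.74 ± 0.24 for Casp1 and 0.62 ± 0.19 for Il1b, and in air 0.44 ± 0.24 for Tnfrsf1b and -0.42 ± 0.12 for Il1r1. Tnf stayed under the lower limit on every array.

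**Figure D1:**
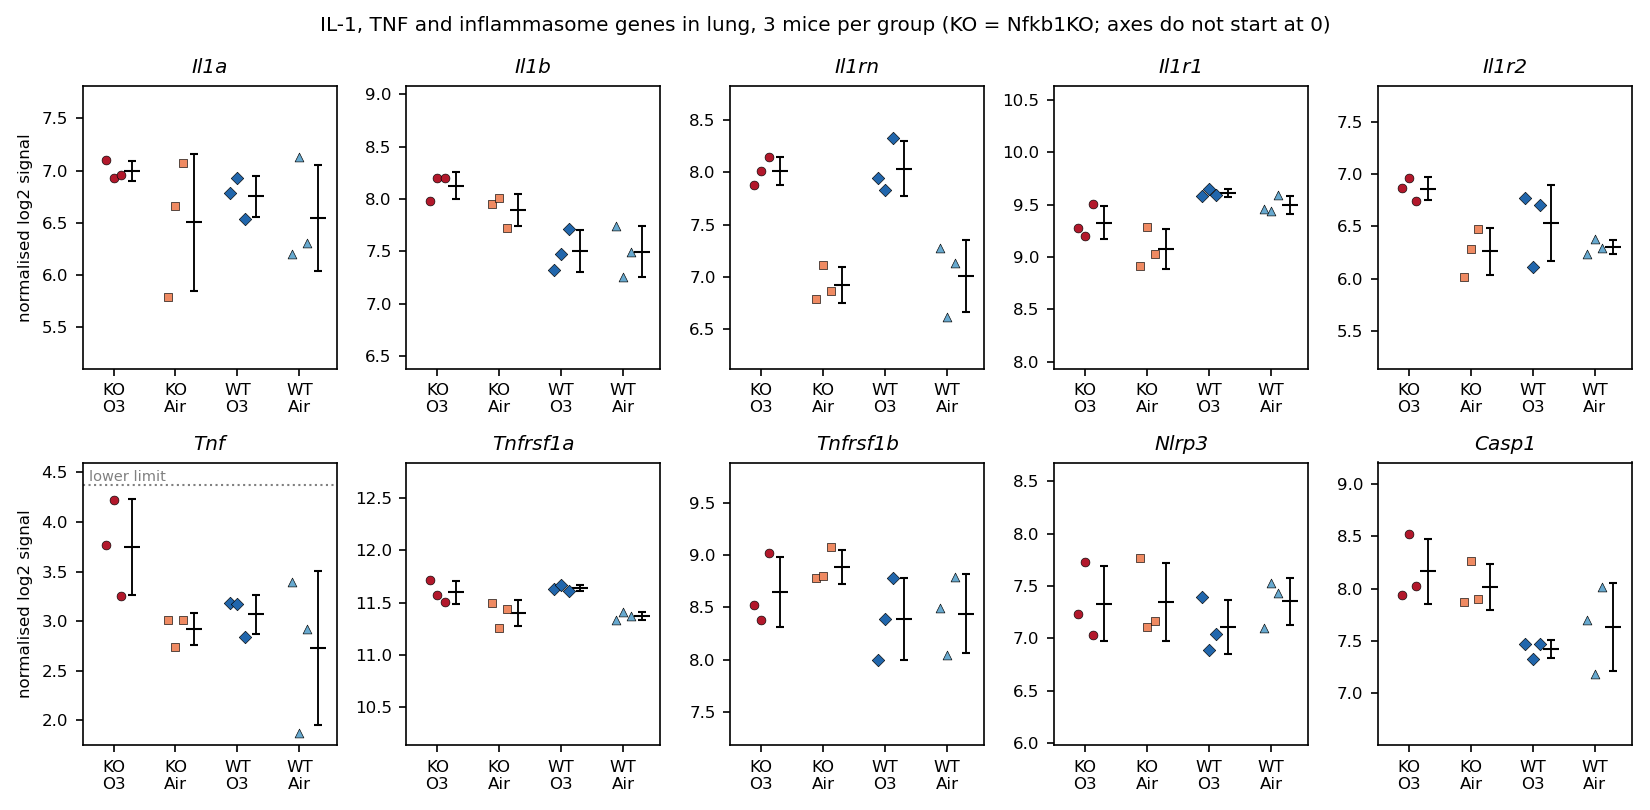
Normalised log2 signal (vertical axis) of the 10 genes in each of 3 mice per group (points), with the group mean and SD (bars beside the points). All panels span the same log2 range except Tnf, whose dotted line is the lower limit of 4.37. The O3 and air mice of Il1rn do not overlap in either genotype, and the 3 Nfkb1KO-O3 mice of Il1b (7.98 to 8.20) lie above the 3 WT-O3 mice (7.32 to 7.72).

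Among the ligands, Il1b on chromosome 2 was measured by 1 probe set. Its signal was 7.98, 8.20 and 8.20 in Nfkb1KO-O3 mice, against 7.32, 7.47 and 7.72 in WT-O3 mice. In air it was 7.95, 8.01 and 7.73 in Nfkb1KO mice, against 7.74, 7.26 and 7.49 in WT mice. All 3 Nfkb1KO-O3 mice lay above all 3 WT-O3 mice, whereas in air the lowest Nfkb1KO mouse was level with the highest WT mouse. After O3, Il1b was 1.54-fold higher in Nfkb1KO than in WT (log2 difference 0.62 ± 0.19, limma adjusted p = 0.232) and 1.32-fold higher in Nfkb1KO-Air than in WT-Air (0.40 ± 0.19, adjusted p = 0.453), neither of them called. Averaged over air and O3, a comparison added after the data were seen, the difference was 0.51 ± 0.13 (adjusted p = 0.0793). Among all genes, 1.98% were called in that averaged comparison.

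Il1a, the IL-1 ligand that is active without cleavage and is released by damaged cells, was the most variable of the 9 genes tested. Its signal was 7.10, 6.93 and 6.96 in Nfkb1KO-O3 mice, against 5.79, 6.66 and 7.07 in Nfkb1KO-Air mice. In WT it was 6.79, 6.93 and 6.54 after O3, against 6.21, 7.13 and 6.31 in air. The O3 mice lay close together and inside the range of the air mice in WT. The pooled SD within groups was 0.43 for Il1a, against a median of 0.27 over all genes, and its O3 differences of 0.49 ± 0.35 in Nfkb1KO and 0.21 ± 0.35 in WT were not called (adjusted p = 0.457 and 0.809). Such a spread leaves room for a wide range of true changes, with 95% intervals of -0.26 to 1.24 in Nfkb1KO and -0.55 to 0.96 in WT.

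Tnf on chromosome 17 could not be compared. Its deposited signals were 7.71 to 17.4 in Nfkb1KO-O3, 5.85 to 18.5 in Nfkb1KO-Air, 7.23 to 8.42 in WT-O3 and 3.47 to 8.67 in WT-Air, on arrays whose trimmed mean was 500. After normalisation all 12 arrays lay at or below the lower limit, at 1.88 to 4.22, so no fold is given. This shows only that the transcript was not well above the dimmest probe sets of these arrays.

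The antagonist Il1rn was called with O3 in both genotypes. Its signal was 7.88, 8.01 and 8.15 in Nfkb1KO-O3 mice, against 6.79, 7.12 and 6.87 in Nfkb1KO-Air mice. In WT it was 7.95, 7.83 and 8.33 after O3, against 7.28, 6.62 and 7.13 in air. Every O3 mouse lay above every air mouse, in and across genotypes. The rise was 1.08 ± 0.22 in Nfkb1KO (2.12-fold, adjusted p = 0.0151) and 1.03 ± 0.22 in WT (2.04-fold, adjusted p = 0.0213). With Nfkb1KO-Air replicate 1 and WT-Air replicate 3 left out it was 1.06 in Nfkb1KO and 1.13 in WT, still called (adjusted p = 0.0458 and 0.032).

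Il1rn was 1 of the 9 members called with O3 in Nfkb1KO, where 6.18% of all genes were called, and 1 of 9 in WT, where 5.4% were. Averaged over genotypes the rise was 1.06 ± 0.16 (2.08-fold, adjusted p = 0.000984), and 1.09 without those arrays (adjusted p = 0.0037). The rise in Nfkb1KO minus that in WT was 0.06 ± 0.32 (adjusted p = 0.98), with a 95% interval of -0.63 to 0.75 that leaves room for a sizeable difference in either direction. Between genotypes Il1rn differed by -0.03 ± 0.22 after O3 and by -0.08 ± 0.22 in air. The call in WT was lost when WT-Air replicate 2 (adjusted p = 0.0533), WT-O3 replicate 1 (0.0567), WT-O3 replicate 2 (0.0558) or WT-O3 replicate 3 (0.0977) was left out, and the call in Nfkb1KO without Nfkb1KO-O3 replicate 3 (0.0554), with the rise between 0.83 and 1.18 over all such omissions in both genotypes. Centring arrays on their medians in place of quantile normalisation also ended the call in WT (1.06, adjusted p = 0.0822), and the mean of the 3 probe sets ended it in Nfkb1KO (1.00, adjusted p = 0.0751).

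**Figure D2:**
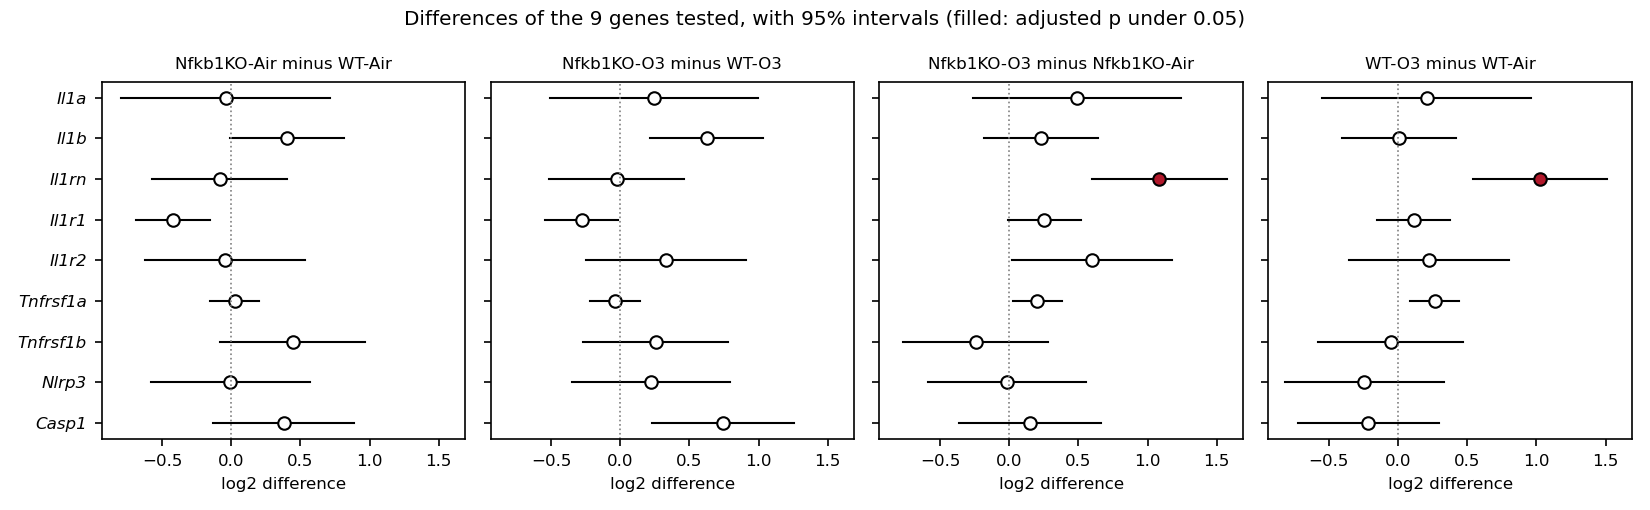
Log2 difference (horizontal axis) of the 9 genes tested in 4 comparisons, with 95% intervals from limma as lines. Filled points passed an adjusted p of 0.05 over all genes. Il1rn is filled in the O3 comparisons of both genotypes, at 1.08 and 1.03, and no point is filled in the genotype comparisons.

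The 3 probe sets of Il1rn are given one by one, and the difference between them was not tested. The brightest, 1451798_at, carried the values above. The probe set 1423017_a_at read 6.35, 6.63 and 7.05 in Nfkb1KO-O3 mice, against 3.88, 4.48 and 6.06 in Nfkb1KO-Air mice, and 6.85, 6.28 and 7.28 in WT-O3 mice, against 5.03, 5.48 and 3.02 in WT-Air mice. Its O3 mice lay above its air mice in both genotypes, and 1 array of each air group was under the lower limit (Nfkb1KO-Air replicate 1 and WT-Air replicate 3). In a fit over all 42559 probe sets, where 3.59% were called with O3 in Nfkb1KO and 3.23% in WT, its difference was 1.87 ± 0.65 in Nfkb1KO (adjusted p = 0.142) and 2.29 ± 0.65 in WT (adjusted p = 0.0818). Neither was called.

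The third Il1rn probe set, 1425663_at, read 6.80, 6.77 and 6.75 in Nfkb1KO-O3 mice, against 7.35, 6.45 and 6.38 in Nfkb1KO-Air mice. In WT it read 7.14, 6.87 and 6.72 after O3, against 6.31, 6.62 and 5.87 in air. The Nfkb1KO groups overlapped through Nfkb1KO-Air replicate 1, the array with the high median signal, while the WT groups did not. Its differences of 0.05 ± 0.31 in Nfkb1KO and 0.65 ± 0.31 in WT were not called (adjusted p = 0.957 and 0.325). In the same fit, 1451798_at was called in Nfkb1KO (adjusted p = 0.0184) and in WT (0.0252).

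**Figure D3:**
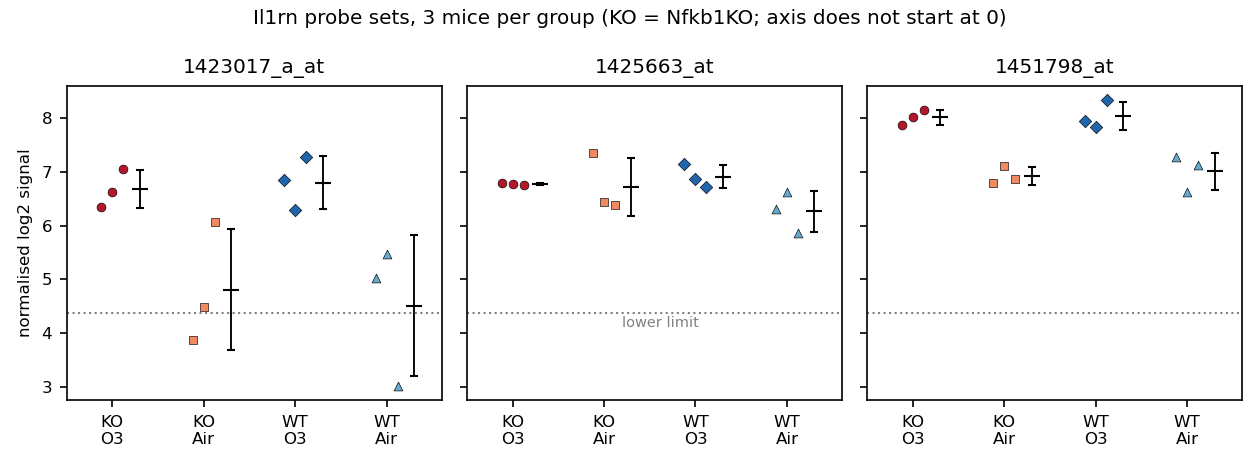
Normalised log2 signal (vertical axis) of the 3 Il1rn probe sets in each mouse, with group mean and SD, and the lower limit of 4.37 as a dotted line. O3 mice lie above air mice of the same genotype in 1451798_at and 1423017_a_at, and in 1425663_at only in WT.

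The genes whose pattern over the 12 arrays was most like that of Il1rn among 17568 others were Rin1 (Pearson r = 0.967), Il33 (0.949) and Tada2b (0.947). These points share normalisation and the O3 contrast, and within groups r was 0.78, 0.55 and 0.50. Rin1 lay at 7.95 to 8.06 in Nfkb1KO-O3 against 7.06 to 7.49 in Nfkb1KO-Air, and at 7.89 to 8.11 in WT-O3 against 7.03 to 7.54 in WT-Air. Tada2b lay at 10.23 to 10.37 in Nfkb1KO-O3 against 9.59 to 9.74 in Nfkb1KO-Air, and at 10.17 to 10.27 in WT-O3 against 9.72 to 9.80 in WT-Air.

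Leukocyte markers moved with O3 in both directions. Over all genes, 6.18% were called with O3 in Nfkb1KO, 5.4% in WT and 15.2% averaged over genotypes. Of 9 alveolar macrophage markers 6 were tested, and 3 of them (Marco, Chil3 and Atp6v0d2) rose with O3 in each genotype. The summed signal of the 6 was 24610 to 25920 in Nfkb1KO-O3 against 18950 to 21910 in Nfkb1KO-Air, and 23560 to 25800 in WT-O3 against 17840 to 20220 in WT-Air. Of 10 neutrophil markers tested, Lcn2, which epithelium also makes, was the only one called with O3, by 1.09 ± 0.14 in Nfkb1KO (adjusted p = 0.00157) and 1.95 ± 0.14 in WT (adjusted p = 3.2e-05). Of the 10 neutrophil markers, 4 were below 0 with O3 in Nfkb1KO (median 0.04) and 6 in WT (median -0.16). Of the 10 monocyte and macrophage markers tested, 7 were below 0 with O3 in each genotype (median -0.10 in Nfkb1KO and -0.49 in WT). In Nfkb1KO, Cd68 rose (0.67 ± 0.18, adjusted p = 0.0447) and Ccr2 fell (-1.01 ± 0.25, adjusted p = 0.0314), and in WT 0 were called. Averaged over genotypes, Cd68 rose (0.58 ± 0.13, adjusted p = 0.00874), while Ccr2 (-0.88 ± 0.17, adjusted p = 0.00492) and Csf1r (-0.40 ± 0.09, adjusted p = 0.0094) fell. Of the 4 lymphocyte markers tested, 1 was below 0 with O3 in Nfkb1KO (median 0.25) and 4 in WT (median -0.70), with 0 called. The part of these cells in the Il1rn result was not tested.

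Among the receptors, Il1r1 on chromosome 1, the signalling receptor for IL-1, averaged lower in Nfkb1KO lungs without passing the test. Its signal was 9.28, 9.20 and 9.50 in Nfkb1KO-O3 mice, against 9.58, 9.65 and 9.59 in WT-O3 mice. In air it was 8.92, 9.28 and 9.02 in Nfkb1KO mice, against 9.46, 9.44 and 9.59 in WT mice. All Nfkb1KO mice of an exposure lay below all WT mice of that exposure. The difference was -0.28 ± 0.12 after O3 (1.21-fold lower, adjusted p = 0.486) and -0.42 ± 0.12 in air (1.34-fold lower, adjusted p = 0.206), and neither was called. Averaged over exposures it was -0.35 ± 0.09 (adjusted p = 0.0623), and 19 of 21 other settings also left it uncalled (adjusted p up to 0.423). It passed the threshold when limma weighted the arrays by quality (adjusted p = 0.0251), where 569 of all genes were called in place of 347. It also passed without Nfkb1KO-Air replicate 2 (adjusted p = 0.0394), where 239 of all genes were called. The second probe set, 1459777_at, lay under the lower limit on all 12 arrays (deposited signal 0.358 to 10.7) and gave no comparison.

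Il1r2, the decoy receptor, read 6.87, 6.96 and 6.75 in Nfkb1KO-O3 mice, against 6.02, 6.28 and 6.48 in Nfkb1KO-Air mice. In WT it read 6.78, 6.11 and 6.70 after O3, against 6.24, 6.38 and 6.30 in air. The O3 mice lay above the air mice in Nfkb1KO, while WT-O3 replicate 2 lay below all WT-Air mice. The O3 difference was 0.60 ± 0.27 in Nfkb1KO (adjusted p = 0.215) and 0.23 ± 0.27 in WT (adjusted p = 0.705), neither called. The 2 changes differed by 0.37 ± 0.38 (adjusted p = 0.896).

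Tnfrsf1a, which encodes TNFR1, varied least of the 9 within groups, with a pooled SD of 0.09. Its signal was 11.72, 11.57 and 11.51 in Nfkb1KO-O3 mice, against 11.50, 11.26 and 11.44 in Nfkb1KO-Air mice. In WT it was 11.63, 11.67 and 11.61 after O3, against 11.33, 11.41 and 11.37 in air. O3 and air mice did not overlap in either genotype, though only narrowly apart in Nfkb1KO. Within a genotype the difference was not called (0.20 ± 0.08 in Nfkb1KO, adjusted p = 0.174, and 0.26 ± 0.08 in WT, adjusted p = 0.0913). Averaged over genotypes, a comparison added after the data were seen in which 15.2% of all genes were called, it rose by 0.23 ± 0.06 (1.18-fold, adjusted p = 0.0182), which with Il1rn made 2 of the 9 members. Without Nfkb1KO-Air replicate 1 and WT-Air replicate 3 the rise was 0.26 (adjusted p = 0.0261). That call was lost without WT-O3 replicate 2 (adjusted p = 0.0507) or Nfkb1KO-O3 replicate 1 (0.0521), with median centring (0.0572) and with no trend in the spread (0.0531).

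Tnfrsf1b, which encodes TNFR2, was higher on average in Nfkb1KO lungs without passing the test. Its brighter probe set, 1418099_at, read 8.53, 8.38 and 9.02 in Nfkb1KO-O3 mice, against 7.995, 8.39 and 8.78 in WT-O3 mice, and 8.78, 8.80 and 9.08 in Nfkb1KO-Air mice, against 8.49, 8.04 and 8.79 in WT-Air mice. The groups overlapped in both exposures. The difference was 0.25 ± 0.24 after O3 and 0.44 ± 0.24 in air (adjusted p = 0.82 and 0.521). The probe set 1448951_at gave 0.36 ± 0.28 after O3 and the opposite sign in air, -0.22 ± 0.28, so the 2 probe sets differed in sign in air.

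The inflammasome members showed no O3 change that passed the test. Casp1, the protease that matures IL-1β and IL-18, read 7.94, 8.53 and 8.03 in Nfkb1KO-O3 mice, against 7.47, 7.33 and 7.47 in WT-O3 mice. In air it read 7.87, 8.27 and 7.90 in Nfkb1KO mice, against 7.70, 7.19 and 8.02 in WT mice. Genotypes did not overlap after O3 and overlapped in air, where WT-Air replicate 3 was high. After O3, Casp1 was 1.67-fold higher in Nfkb1KO than in WT (0.74 ± 0.24, adjusted p = 0.26) and 1.30-fold higher in Nfkb1KO-Air than in WT-Air (0.38 ± 0.24, adjusted p = 0.583), and 0.56 ± 0.17 higher averaged over exposures (adjusted p = 0.129), none of them called. With O3 it differed by 0.15 ± 0.24 in Nfkb1KO and by -0.21 ± 0.24 in WT.

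Nlrp3 read 7.24, 7.73 and 7.03 in Nfkb1KO-O3 mice, against 7.77, 7.10 and 7.16 in Nfkb1KO-Air mice. In WT it read 7.39, 6.89 and 7.04 after O3, against 7.10, 7.53 and 7.43 in air. The groups overlapped in every comparison. The O3 difference was -0.02 ± 0.26 in Nfkb1KO and -0.25 ± 0.26 in WT, and the genotype difference was 0.22 ± 0.26 after O3 and -0.01 ± 0.26 in air.

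Counted together, 0 of the 9 tested members were called between genotypes after O3, where 0.723% of all genes were, and 0 of 9 in air, where 0.342% were. At an unadjusted limma p under 0.05 there were 3 members after O3 (Il1b, Casp1 and Il1r1) and 1 in air (Il1r1), beside 9.43% and 11.3% of all genes. The methods' t-test, run in air, gave 1 member at an unadjusted p under 0.05 (Il1r1), beside 6.73% of all genes, and 0 after adjustment, where 0% of all genes were called. Averaged over exposures 0 of the 9 were called and 3 had an unadjusted p under 0.05 (Il1b, Il1r1 and Casp1), beside 13.2% of all genes. Members whose genotypes did not overlap numbered 4 after O3 (Il1b and Casp1 higher, Il1a higher by a margin lost in rounding, Il1r1 lower), beside 19.1% of all genes, and 1 in air (Il1r1), beside 13.9%. The median difference of the 9 members was 0.24 after O3 and -0.01 in air, beside 0.00 and -0.01 over all genes.

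With O3, members whose groups did not overlap numbered 3 in Nfkb1KO (Il1rn, Il1r2 and Tnfrsf1a), beside 25.4% of all genes, and 2 in WT (Il1rn and Tnfrsf1a), beside 27.6%. These shares are near the background. At an unadjusted limma p under 0.05 there were the same 3 members in Nfkb1KO, beside 21.5% of all genes, the same 2 in WT, beside 19.7%, and 3 averaged over genotypes (Il1rn, Il1r2 and Tnfrsf1a), beside 28.9%. The median O3 difference was 0.23 in Nfkb1KO and 0.11 in WT, beside -0.01 and -0.03 over all genes. No member was called for the genotype by O3 interaction, where 0.0342% of all genes were, and 0 had an unadjusted p under 0.05, beside 6.06% of all genes. The 2 O3 comparisons share no arrays with each other, but each genotype comparison shares 1 group with each of them.

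Over the 12 arrays, Il1b and Casp1 were the pair of members that varied most alike (Pearson r = 0.805), and Il1r1 and Nlrp3 were the most opposed (-0.509). Il1b and Il1rn gave 0.288. These are descriptions over arrays that share groups and normalisation, and both Il1b and Casp1 averaged higher in Nfkb1KO.

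**Figure D4:**
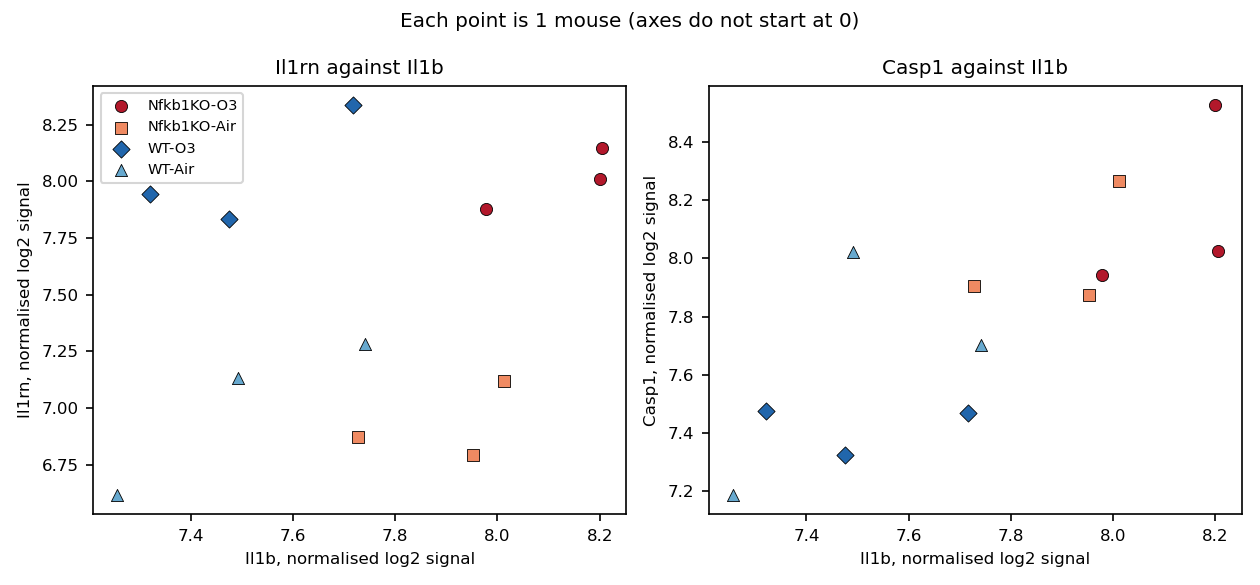
Normalised log2 signal of Il1rn (left, vertical axis) and Casp1 (right, vertical axis) against that of Il1b (horizontal axis), 1 point per mouse and 1 symbol per group. O3 mice are high for Il1rn in both genotypes, and the 3 Nfkb1KO-O3 mice (7.98 to 8.20 for Il1b) stand to the right of the 3 WT-O3 mice (7.32 to 7.72) in both panels.

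Leukocyte markers also moved with genotype. Over all genes, 0.723% were called between genotypes after O3, 0.342% in air and 1.98% averaged over exposures. Of the 10 neutrophil markers tested, S100a8 was higher in Nfkb1KO after O3 (1.30 ± 0.16, adjusted p = 0.00153) and in air (1.00 ± 0.16, adjusted p = 0.0203), and S100a9 after O3 (1.41 ± 0.23, adjusted p = 0.0108). The summed signal of the 10 was 10610 to 16560 in Nfkb1KO-O3 against 9774 to 12330 in WT-O3. In air it was 9760 to 13700 in Nfkb1KO against 4197 to 11760 in WT. Nfkb1KO-O3 replicate 2 had the highest sum and the highest Casp1 signal (8.53), and WT-Air replicate 2 the lowest of both (4197 and 7.19). WT-O3 replicate 1 had a sum of 12330 with Casp1 at 7.47, and WT-Air replicate 3 a sum of 5214 with Casp1 at 8.02. No relation between this sum and Casp1 over the arrays was computed. Of the neutrophil markers, 2 of the 10 were at or below the lower limit throughout WT-O3 and 2 throughout WT-Air. The 10 monocyte and macrophage markers tested summed to 31070 to 33220 in Nfkb1KO-O3 against 28690 to 30470 in WT-O3, with 0 called. In air they summed to 33440 to 35240 in Nfkb1KO against 30550 to 35000 in WT, also with 0 called. Averaged over exposures, 3 of these 10 were higher in Nfkb1KO, Ccr2 (0.85 ± 0.17, adjusted p = 0.0245), Cd14 (0.72 ± 0.15, adjusted p = 0.0324) and Fcgr1 (0.89 ± 0.14, adjusted p = 0.00448), as were 4 of the 10 neutrophil markers, S100a8, S100a9, Csf3r (0.87 ± 0.16, adjusted p = 0.0131) and Mmp8 (1.05 ± 0.22, adjusted p = 0.0323). Of the 6 alveolar macrophage markers tested, 3 were below 0 between genotypes in air (median -0.06) and 2 after O3 (median 0.13). They summed to 18950 to 21910 in Nfkb1KO-Air against 17840 to 20220 in WT-Air. After O3 they summed to 24610 to 25920 in Nfkb1KO against 23560 to 25800 in WT. Among them Marco was lower in Nfkb1KO-Air than in WT-Air (-1.76 ± 0.22, adjusted p = 0.00465). Averaged over exposures Marco was also lower (-1.31 ± 0.16, adjusted p = 0.000723), and Plet1 was higher (0.39 ± 0.09, adjusted p = 0.0446). Of the 4 lymphocyte markers tested, 1 was below 0 between genotypes after O3 (median 0.68) and 2 in air (median -0.20). Nkg7 was the only one called after O3, higher in Nfkb1KO (1.82 ± 0.22, adjusted p = 0.00149), and 0 were called in air. The part of these cells in the Il1b, Casp1 and Il1r1 differences was not tested.

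Counts in the pathway lists below are to be read beside the shares called over all genes. These were 6.18% with O3 in Nfkb1KO, 5.4% in WT and 15.2% averaged over genotypes. Between genotypes they were 0.723% after O3, 0.342% in air and 1.98% averaged over exposures. Other ligands and receptors of the IL-1 family gave 10 tested genes of 15. With O3, 1 rose and 0 fell in each genotype. The riser was Il33, an alarmin stored in epithelial and stromal nuclei, which lay at 12.34 to 12.42 in Nfkb1KO-O3 against 11.45 to 11.70 in Nfkb1KO-Air, and at 12.20 to 12.55 in WT-O3 against 11.44 to 11.79 in WT-Air. It rose by 0.76 ± 0.11 in Nfkb1KO (adjusted p = 0.00324) and by 0.71 ± 0.11 in WT (adjusted p = 0.00444). Il33 and Il1rn thus both rose in both genotypes, with genotype differences after O3 of 0.02 ± 0.11 for Il33 and -0.03 ± 0.22 for Il1rn.

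Between genotypes after O3, 2 of these 10 were higher in Nfkb1KO and 0 lower. Il18, the other cytokine that caspase-1 matures, lay at 10.59 to 10.88 in Nfkb1KO-O3 against 9.74 to 10.29 in WT-O3, a difference of 0.83 ± 0.15 (1.77-fold, adjusted p = 0.0215). Il18bp, which encodes the secreted inhibitor that binds IL-18, lay at 7.90 to 8.34 in Nfkb1KO-O3 against 5.88 to 6.73 in WT-O3, a difference of 1.71 ± 0.32 (3.28-fold, adjusted p = 0.0276). In air 0 of the 10 were called, with 0.09 ± 0.15 for Il18 and 0.41 ± 0.32 for Il18bp. Averaged over exposures both were higher in Nfkb1KO (0.46 ± 0.10, adjusted p = 0.0446, for Il18 and 1.06 ± 0.23, adjusted p = 0.0303, for Il18bp). The interaction was not called for either gene (0.74 ± 0.21, adjusted p = 0.645, for Il18 and 1.30 ± 0.45, adjusted p = 0.794, for Il18bp).

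IL-1 receptor signalling gave 13 tested genes of 14. With O3, 1 rose and 0 fell in each genotype, and 0 were called between genotypes in either exposure. Myd88, the adaptor of IL-1 and Toll-like receptors, rose by 0.45 ± 0.08 in Nfkb1KO (adjusted p = 0.00599) and by 0.43 ± 0.08 in WT (adjusted p = 0.00778). Averaged over genotypes Irak2, a kinase downstream of MyD88, also rose (0.41 ± 0.09, adjusted p = 0.00757). That made 2 of the 13, beside 15.2% of all genes. Averaged over exposures Map3k7, which encodes the kinase TAK1, was lower in Nfkb1KO (-0.58 ± 0.11, adjusted p = 0.0132). It was 1 of the 13, beside 1.98% of all genes.

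TNF ligands, receptors and signalling gave 19 tested genes of 20. With O3, 0 rose and 0 fell in Nfkb1KO, and 0 rose and 1 fell in WT. The gene that fell was Map3k5, which encodes the stress kinase ASK1, by 0.48 ± 0.10 in WT-O3 (adjusted p = 0.0181), against -0.27 ± 0.10 in Nfkb1KO (adjusted p = 0.135), and the difference between these was 0.21 ± 0.14 (adjusted p = 0.862). Between genotypes 0 of the 19 were called in either exposure. Averaged over genotypes Ltbr, the lymphotoxin β receptor, rose by 0.29 ± 0.07 (adjusted p = 0.0171), and Map3k5 fell (-0.38 ± 0.07, adjusted p = 0.00393). Thus 1 of the 19 rose and 1 fell, beside 15.2% of all genes called.

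Inflammasome sensors, adaptors and effectors gave 16 tested genes of 20. With O3, 0 rose and 0 fell in Nfkb1KO, and 0 rose and 1 fell in WT. Pycard, whose product ASC links sensors to caspase-1, lay at 9.67 to 10.01 in Nfkb1KO-O3 against 9.76 to 10.26 in Nfkb1KO-Air, and at 8.95 to 9.39 in WT-O3 against 9.65 to 10.05 in WT-Air. It fell by 0.70 ± 0.16 in WT (1.63-fold, adjusted p = 0.0276), while Nfkb1KO gave -0.12 ± 0.16 (adjusted p = 0.731) and the interaction 0.59 ± 0.23 (adjusted p = 0.81). Averaged over genotypes Pycard fell as well (-0.41 ± 0.12, adjusted p = 0.0305), 1 of the 16 called, beside 15.2% of all genes. Between genotypes 0 of the 16 were called in either exposure, with 0.75 ± 0.16 for Pycard after O3 (adjusted p = 0.0648). Averaged over exposures Naip2, a sensor of bacterial proteins, was higher in Nfkb1KO (0.83 ± 0.14, adjusted p = 0.0102), 1 of the 16 called, beside 1.98% of all genes.

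The median difference after O3 between genotypes was 0.07 over the IL-1 family genes, 0.04 over IL-1 signalling, -0.06 over TNF signalling and 0.14 over inflammasome genes, beside 0.00 over all genes. The median O3 difference in Nfkb1KO was 0.23, 0.16, 0.06 and -0.12 in the same order of lists, and in WT -0.03, 0.04, 0.00 and -0.13, beside -0.01 and -0.03 over all genes.

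**Figure D5:**
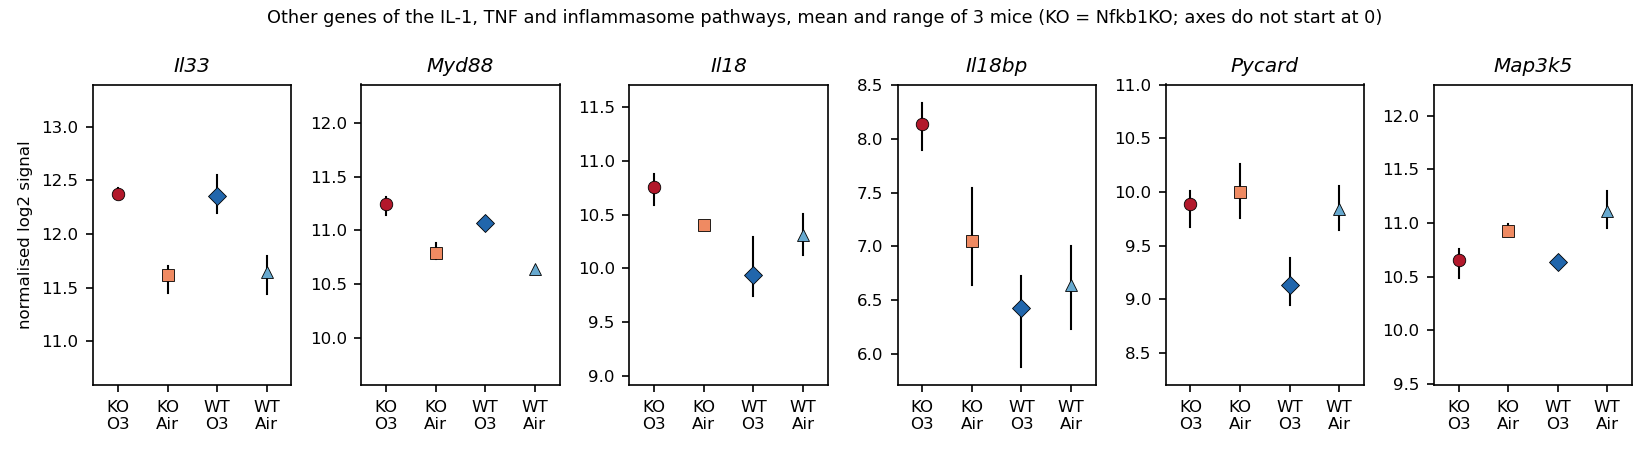
Normalised log2 signal (vertical axis, same range in each panel) of 6 further pathway genes, with the mean (symbol) and range (line) of 3 mice per group. Il33 and Myd88 are higher after O3 in both genotypes, Il18 and Il18bp are highest in Nfkb1KO-O3, and Pycard is lowest in WT-O3 (8.95 to 9.39).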

How the data were processed

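Lung RNA of 12 mice was measured on Affymetrix Mouse Genome 430 2.0 arrays, with each mouse on its own array. Linear intensities were deposited for each probe set, and the authors, per the submitters' processing notes, had computed them with MAS5 in Affymetrix Expression Console (versions not given in the sources used here). The trimmed mean of every array (2% off each end) was 500. No detection calls were used, and precision is limited by there being 3 arrays per group.

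For the present report 64 control probe sets were left out, signals were raised to at least 1 and, after taking log2, quantile normalised, and probe sets above the 20th percentile in at least 1 array were kept. Probe sets with 1 gene symbol were used, and a gene with several was represented by its brightest one. The 12 arrays entered 1 linear model with a mean for each group in limma 3.58.1 in R 4.3.3 (moderated spread with trend, 12.6 residual degrees of freedom, prior included, Benjamini-Hochberg adjustment over 17569 genes, called under 0.05). Errors of differences are standard errors. An exact two-sided test between groups of 3 cannot give a p under 0.1. The procedure was also run on simulated data with independent errors and with changes placed only in genes above the median level. Il1rn (percentile 39.6) and Il1b (percentile 42.3) lay below that level, so the run does not cover them. The 10 genes, the pathway and marker lists and the motifs were chosen with earlier results of these data known. All 10 genes were named, with up to 4 called genes of each pathway list by smallest p. Alternatives were median centring, a floor of 16, no filter, the mean of probe sets, no trend, array weights, only the groups compared, kept control probe sets, the replicate block and leaving out arrays. Mice were separate animals, so replicate numbers do not pair them.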

Additional observations from a re-analysis of the deposited data

How the results depend on the processing

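Differences are log2 throughout. Of 50 member differences, 34 kept their direction in every setting run, and those that turned were all uncalled. The number of members called with O3 in WT was 0 in place of 1 with median centring and 0 to 1 when single arrays were left out. With O3 in Nfkb1KO it was 0 in place of 1 with the mean of probe sets and 0 to 1 when single arrays were left out. For genotype averaged over exposure it was 1 (Il1r1) in place of 0 with array weights and 0 to 1 when single arrays were left out. For O3 averaged over genotype it was 1 (Il1rn) in place of 2 with median centring and with no trend, and 1 to 2 when single arrays were left out. The ordinary t-test gave 1 member for genotype in air at an unadjusted p under 0.05 (Il1r1) and 0 after Benjamini-Hochberg adjustment. The cause of these changes was not tested.

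Median centring turned the genotype difference in air to 0.050 for Il1a, 0.030 for Il1r2 and -0.27 for Tnfrsf1a, that after O3 to 0.014 for Il1rn and 0.034 for Tnfrsf1a, the O3 difference in Nfkb1KO to 0.043 for Tnfrsf1b and 0.11 for Nlrp3, and the interaction to 0.30 for Tnfrsf1a and 0.048 for Tnfrsf1b. It shifted the median of all genes to -0.20 for genotype in air, 0.25 for O3 in Nfkb1KO, 0.25 for the interaction and 0.13 for O3 averaged over genotype, and its values are to be read relative to these shifts. The mean of probe sets turned Il1rn to 0.22 for genotype in air and -0.32 for the interaction, and Tnfrsf1b to 0.033 for O3 in Nfkb1KO and 0.20 for the interaction. Array weights turned Il1a to 0.36 and Il1r2 to 0.091 for genotype in air, Il1b to -0.016 for O3 in WT, Nlrp3 to 0.073 for O3 in Nfkb1KO and Il1a to -0.092 for the interaction. Without Nfkb1KO-Air replicate 1 and WT-Air replicate 3, genotype in air turned to 0.20 for Il1a, 0.045 for Il1rn, 0.074 for Il1r2 and -0.026 for Tnfrsf1a, O3 in WT to 0.12 for Tnfrsf1b, O3 in Nfkb1KO to 0.20 for Nlrp3 and the interaction to -0.071 for Il1rn.

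With single arrays left out, genotype in air ran from -0.32 to 0.32 for Il1a, -0.28 to 0.052 for Il1rn, -0.15 to 0.078 for Il1r2, -0.026 to 0.092 for Tnfrsf1a and -0.23 to 0.11 for Nlrp3. Genotype after O3 ran from -0.13 to 0.12 for Il1rn and -0.097 to 0.010 for Tnfrsf1a. O3 in WT ran from -0.11 to 0.13 for Il1b and -0.25 to 0.14 for Tnfrsf1b, and O3 in Nfkb1KO from -0.21 to 0.20 for Nlrp3 and -0.030 to 0.28 for Casp1. The interaction ran from -0.073 to 0.57 for Il1a, -0.078 to 0.25 for Il1rn and -0.38 to 0.011 for Tnfrsf1b.

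Over all genes, median centring called 87 with O3 in WT (76 higher) in place of 949 (555 higher), 308 in Nfkb1KO (289 higher) in place of 1086 (589 higher), 990 for O3 averaged over genotype (874 higher) in place of 2671 (1352 higher), and 9 (6 higher) in place of 60 (45 higher) for genotype in air. Across settings the number called ran from 0 to 1182 for genotype in air, 51 to 395 after O3, 87 to 1548 for O3 in WT, 308 to 1747 in Nfkb1KO, 0 to 15 for the interaction, 168 to 569 for genotype averaged over exposure and 990 to 3603 for O3 averaged over genotype. Deviations of arrays with the same replicate number correlated at -0.166 to 0.107, so that the numbers were not taken as pairs. With the replicate block Il1rn was called with O3 in WT (1.03, adjusted p = 0.0364) and in Nfkb1KO (1.08, adjusted p = 0.0281), and no count of members changed.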
